A study of Mus musculus with 21 samples.

Results

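Cells of LB31, a mouse line of pre-B acute lymphoblastic leukaemia, were compared with B220-positive bone marrow cells of mice that carry both a Blnk knockout and a Cebpb LAP transgene. The comparison uses the 3 arrays titled LB31 pMY and the 3 titled LAP tg/BLNK KO BM, chosen by their titles, out of 21 Affymetrix whole-genome mouse arrays in the series. Per the labels, LB31 was established from a Blnk KO mouse, was grown in RPMI1640 with 10% FBS and 5 ng/ml of interleukin 7 (IL-7), and here carried an empty pMY retroviral vector. The marrow cells were sorted for B220, a surface form of CD45 on B-lineage cells, and are described as non-neoplastic. Blnk loss is thus shared by the labels of both groups. The labels of LB31 name no LAP transgene, and the promoter of the transgene, the ages of the mice, and whether marrow was pooled are not given in the sources used here. Side values come from 3 arrays each of Blnk KO, LAP tg and wild-type marrow sorted in the same way.

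LB31 is 1 line, so its 3 arrays are not 3 leukaemias, and nothing in the labels says whether replicates came from separate cultures or animals. The p-values therefore rest on array-to-array spread that could be technical. A cultured leukaemia line with IL-7 differs from sorted marrow in many ways at once, and malignancy, culture, cytokine and cell composition cannot be told apart in this design.

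BLNK is the adaptor that joins the pre-B cell receptor and its kinase SYK to phospholipase C and BTK. The pre-B cell receptor is a heavy chain paired with the surrogate light chain, encoded by Igll1 and the Vpreb genes. Its signals first drive a few divisions together with IL-7 and then stop proliferation, switch on light chain rearrangement and move the cell on to the small pre-B stage, and cells without BLNK are held back at that step. C/EBPβ is a leucine zipper transcription factor best known in macrophages, granulocytes, fat and liver, and LAP is its activating isoform.

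Every value below is a quantile-normalized log2(signal + 4), where the signal is the deposited probe set intensity, and every difference is LB31 minus LAP tg/Blnk KO marrow on that scale. Each gene is given by its brightest probe set. A gene was called when the limma test across all 14655 genes gave an adjusted p under 0.05, and each adjusted p is from that test, with n = 3 arrays per group and errors of differences as SE. A group mean under 4.06, the level that an array's 40th percentile has on this scale, counts as under the filter level. The size of a difference from such a level depends on the pseudocount, also where the text does not mark the gene.

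The 2 groups differed at most genes. Of 14655 genes tested, 8614 were called (58.8%), with 4159 higher in LB31 (28.4%) and 4455 lower (30.4%), and the median difference over all genes was 0.04. Of the called genes, 4249 changed at least 2-fold (29.0% of those tested), 1833 up and 2416 down. At 8-fold and beyond the balance was uneven, with 106 genes higher and 499 lower. Among called genes, 6444 (74.8%) had all 3 LB31 arrays outside the range of all 12 marrow arrays, 3213 above it and 3231 below it. The arrays of the groups did not overlap at 9405 genes (64.2%). Against Blnk KO marrow without the transgene, 8695 genes were called (59.3%), in a comparison that shares the LB31 arrays. A high share of called members in a gene list is therefore common here, and every count of list members below is to be read against the 28.4% of all genes that were higher and the 30.4% that were lower.

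The LB31 arrays were dimmer as deposited, with a median signal of 17.0 ± 2.20 (SD, n = 3) against 29.3 ± 1.87 in LAP tg/Blnk KO marrow. Arrays correlated at 0.963 to 0.967 within LB31 and at 0.978 to 0.980 within the marrow group, and at 0.874 to 0.890 between them. The 3' to 5' signal ratio of the Gapdh control probe sets was 0.70 to 0.73 in LB31 and 0.80 to 0.92 in the marrow group, and that of actin was 1.19 to 1.28 against 1.35 to 1.46. The part of RNA quality and array brightness in the differences was not tested. Without normalization between arrays the median of all genes moved to -0.46, and with arrays centred on their medians it moved to 0.21, so small differences are read against those shifts.

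**Figure D1:**
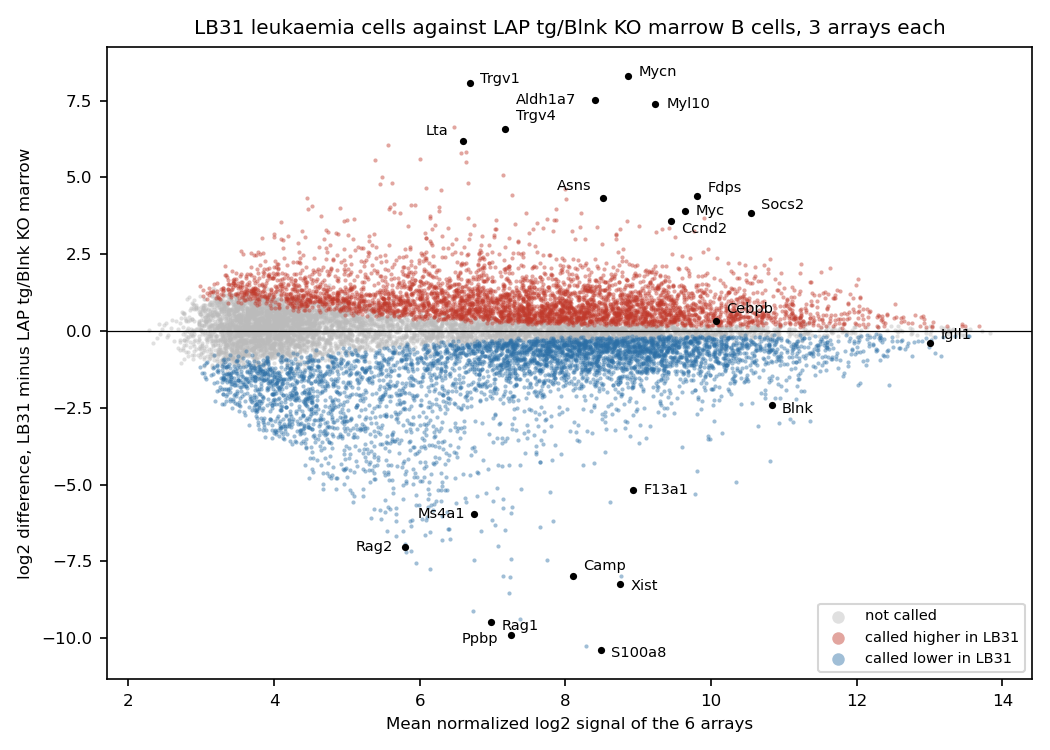
Difference between LB31 and LAP tg/Blnk KO marrow (log2, vertical axis) against the mean normalized log2 signal of the 6 arrays (horizontal axis), 1 point per gene, coloured by call, with black points for named genes. Mycn stands highest at 8.31, S100a8 lowest at -10.39, and Cebpb lies near 0 at 0.31.

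The arrays were paired in the knowledge that both groups have a high Cebpb signal, so its level is a description. The brightest Cebpb probe set read 10.10, 10.28 and 10.27 in LB31 and 10.00, 9.88 and 9.83 in LAP tg/Blnk KO marrow. Blnk KO marrow without the transgene averaged 5.02 and wild-type marrow 5.43, so LB31, whose labels name no LAP transgene, had as much of this signal as the transgenic cells. The other Cebpb probe set did not follow. It averaged 4.62 ± 0.42 (SD, n = 3) in LB31 against 7.20 ± 0.39 in LAP tg/Blnk KO marrow and 7.04 in Blnk KO marrow. The difference of -2.58 ± 0.40 was called, in the opposite direction from the first probe set. The call of the first (difference 0.31 ± 0.13, adjusted p = 0.0387) was fragile. It was lost without marrow replicate 2 (0.30, adjusted p = 0.0844) or 3 (0.28, 0.11), and without LB31 replicate 2 (0.28, 0.112) or 3 (0.28, 0.105). A pseudocount of 1 (0.31, adjusted p = 0.0511) ended it too.

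The other C/EBP genes were lower in LB31. Cebpd read 3.03, 2.73 and 3.12 in LB31 against 6.81, 6.61 and 6.41 in LAP tg/Blnk KO marrow, a fall to under the filter level (difference -3.65 ± 0.37, adjusted p = 1.88e-08). Cebpa, a factor of myeloid progenitors, was under the filter level in LB31 as well (difference -1.90 ± 0.49). With Cebpb left aside, all 4 other tested members were called lower, against 30.4% of all genes, though Cebpg and Ddit3 each have a second probe set called the other way.

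Blnk had 1 probe set, and the files do not say whether it lies inside the deletion, so it checks nothing about the knockout. It read 9.62, 9.63 and 9.65 in LB31 and 12.15, 11.88 and 12.07 in LAP tg/Blnk KO marrow (difference -2.40 ± 0.10, adjusted p = 1.42e-14). Blnk KO marrow averaged 12.37 and wild-type marrow 12.44, so all 3 LB31 arrays lay below the whole marrow.

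Cd79a, Cd79b, Ebf1, Igll1, Pax5, Ptprc and Vpreb1, the 7 B-lineage markers measured, were all above the filter level in LB31, with means from 6.07 for Pax5 to 12.88 for Vpreb1. Other genes of B-lineage stages, among them Rag1, Rag2, Kit and Ms4a1, were under it. A marker above that level could still differ. Ptprc, which encodes CD45, read 10.55, 10.52 and 10.56 in LB31 against 11.89, 11.96 and 11.86 in LAP tg/Blnk KO marrow. It was lower in LB31 (difference -1.35 ± 0.06, adjusted p = 1.84e-13) and below all 12 marrow arrays. Igll1, the λ5 part of the surrogate light chain, read 12.76, 12.83 and 12.83 in LB31 against 13.29, 13.18 and 13.16 in LAP tg/Blnk KO marrow. Vpreb1, its partner, read 12.90, 12.87 and 12.87 in LB31 against 13.17, 13.11 and 13.19. Both groups stood well above wild-type marrow, which averaged 10.46 for Igll1 and 11.12 for Vpreb1.

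The small differences of these surrogate light chain genes, -0.40 ± 0.13 for Igll1 (adjusted p = 0.00979) and -0.28 ± 0.09 for Vpreb1 (adjusted p = 0.0116), depended on the scaling: with arrays centred on their medians they were 0.46 and 0.60. Of the 6 tested genes of the pre-B cell receptor 1 was called higher and 5 lower, against 5 higher and 0 lower after centring. Cd79a, the Igα signalling chain, was the member whose rise was large, at 10.64, 10.73 and 10.80 in LB31 against 8.87, 8.96 and 8.95 in LAP tg/Blnk KO marrow (difference 1.80 ± 0.09, adjusted p = 6.11e-13). Cd79b, the Igβ chain, was lower (difference -0.76 ± 0.09), and was no longer called after centring.

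Mycn gave the largest rise of all genes tested. This MYC-family transcription factor read 13.01, 13.02 and 13.01 in LB31 against 4.66, 4.52 and 4.95 in LAP tg/Blnk KO marrow, and Blnk KO marrow averaged 4.91. The LB31 arrays were nearly identical and lay far above every marrow array. The difference was 8.31 ± 0.30, or 317-fold on this scale (adjusted p = 3.21e-15). Myc itself read 11.52, 11.64 and 11.62 in LB31 against 7.76, 7.69 and 7.61 in the marrow group, a large rise as well (difference 3.91 ± 0.16, adjusted p = 1.17e-14).

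The list of MYC family and ribosome biogenesis genes had 21 of 27 members called higher and 3 lower, with a median difference of 1.70 against 0.04 for all genes. Mxd1, Mxd3 and Mxd4, which compete with MYC for its partner MAX and repress its targets, were the 3 that were lower, while Mxi1, of the same family, was higher (difference 0.80 ± 0.10) and so was Max (difference 1.95 ± 0.14). Mxd1 read 4.77, 3.54 and 4.79 in LB31 against 7.72, 7.62 and 7.37 in LAP tg/Blnk KO marrow (difference -3.20 ± 0.37). Mxd4 fell by 2.13 ± 0.11 and Mxd3 by 1.13 ± 0.22. Rrp9, a protein of the U3 particle that processes ribosomal RNA, read 7.95, 8.45 and 8.13 in LB31 against 5.00, 5.06 and 5.48 in the marrow group (difference 2.99 ± 0.33). Odc1, Mnt and Mycl did not pass the test. Of 27 members, 21 had a RefSeq promoter. The E-box CACGTG stood within 250 bases before the start in 2 of these (9.52%), against 6.86% of 27025 genes. The 2 were Mxd4, which fell, and Mnt, which was not called. The 27025, here and below, are all genes with a RefSeq promoter, whether or not they were tested here.

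Of the genes of sterol and fatty acid synthesis, 21 of 22 tested members were called higher and 0 lower (median difference 2.07), against 28.4% of all genes called higher. These enzymes turn acetyl-CoA into cholesterol and fatty acids under the control of SREBP factors. Fdps, which makes farnesyl diphosphate, read 11.91, 12.02 and 12.10 in LB31 against 7.70, 7.84 and 7.31 in LAP tg/Blnk KO marrow, the largest rise of the list (difference 4.39 ± 0.12, adjusted p = 5.24e-17). Idi1, the isomerase one step before it, rose by 3.34 ± 0.16, and Lss, which cyclises oxidosqualene to lanosterol, by 3.30 ± 0.17. At 20 of the 21 genes the LB31 arrays lay above all 12 marrow arrays, and Scd1 was the exception.

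Srebf1 did not pass the test, with 8.87, 8.94 and 8.89 in LB31 and 9.02, 8.95 and 8.71 in the marrow group (difference 0.01 ± 0.09, adjusted p = 0.96). Srebf2, the factor most tied to the cholesterol genes, read 8.78, 8.72 and 8.75 in LB31 against 6.52, 6.91 and 6.57 (difference 2.09 ± 0.10, adjusted p = 2.65e-13). In every scaling tried 21 of the 22 were called higher, and without normalization between arrays the other one was called lower.

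The promoters of the sterol genes are shown because most of them share the CCAAT pentamer, the letters bound by NF-Y, a factor known to work beside SREBP. Among 16 members with a RefSeq promoter, 14 held CCAAT on either strand in the 250 bases before the start (87.5%), against 37.5% of 27025 genes. The letters are not particular to the sterol list, since 12 of 18 ATF4 target promoters held them too (66.7%). They stood in 7 of 14 promoters of the list of IL-7 receptor pathway genes (50%) and in 4 of 21 of the MYC list (19%). The sterol regulatory letters TCACNCCAC were found in 1 of the 16 (6.25%), Hmgcs1, against 1.22% of all genes. Capitals mark these matches below, where ATTGG is CCAAT read on the other strand, and no marked match overlaps another. Hmgcs1 makes HMG-CoA and lies at chr13:119690101-119690350 on the plus strand, and Msmo1, the methylsterol monooxygenase, at chr8:64733579-64733828 on the minus strand (RefSeq, GRCm38.p6). Both were chosen after their values were seen.
Hmgcs1: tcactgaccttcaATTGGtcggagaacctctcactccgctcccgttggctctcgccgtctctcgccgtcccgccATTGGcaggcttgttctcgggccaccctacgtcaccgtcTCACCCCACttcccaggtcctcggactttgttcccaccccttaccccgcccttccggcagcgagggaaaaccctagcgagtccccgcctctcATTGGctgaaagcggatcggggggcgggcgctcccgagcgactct
Msmo1: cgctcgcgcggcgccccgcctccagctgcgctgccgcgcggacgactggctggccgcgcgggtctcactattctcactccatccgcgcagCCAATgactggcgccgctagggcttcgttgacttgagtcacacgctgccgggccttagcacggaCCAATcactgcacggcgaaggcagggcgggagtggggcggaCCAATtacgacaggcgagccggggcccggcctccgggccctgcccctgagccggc

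Msmo1, with 3 CCAAT letters in this window, read 10.26, 10.10 and 10.19 in LB31 against 7.23, 7.31 and 7.05 in LAP tg/Blnk KO marrow (difference 2.99 ± 0.09). Hmgcs1, with 3 CCAAT matches and the sterol letters, read 11.39, 11.18 and 11.28 against 9.61, 9.82 and 9.67 (difference 1.58 ± 0.10). Both genes were above all 12 marrow arrays. CCAAT was also present in the promoter of Srebf1, which was not called, and a match of letters is a description and not a bound site.

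Amino acid synthesis and transport genes, the targets of ATF4, were mostly higher as well. Of 22 tested, 15 were called higher and 2 lower, with a median difference of 0.96. Asns, which makes asparagine, read 10.69, 10.78 and 10.55 in LB31 against 6.35, 6.58 and 6.13 in LAP tg/Blnk KO marrow, a 20.0-fold rise (difference 4.32 ± 0.36, adjusted p = 1.08e-09). Shmt2, the mitochondrial enzyme that takes the one-carbon unit from serine, read 11.68, 11.84 and 11.68 against 8.01, 7.95 and 8.23 (difference 3.67 ± 0.17). Mthfd2, the next enzyme of that pathway, rose by 1.87 ± 0.12. None of these 3 genes had overlapping groups, and all 3 lay above all marrow arrays.

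The 2 lower members were Slc38a2, an amino acid carrier (difference -0.50 ± 0.08), and Ddit3, the stress factor CHOP (difference -0.33 ± 0.11). Neither call held after centring, and Ddit3 was also no longer called without marrow replicate 2 (difference -0.30, adjusted p = 0.0578).

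The ATF4 target promoters are shown for the CARE letters TGATGNAAN, the composite site at which C/EBP and ATF proteins can pair. They stood in 4 of 18 members with a promoter (22.2%), against 3.89% of 27025 genes. The 4 were Asns, Chac1, Slc7a11 and Vldlr, of which the last 2 were not called. Asns lies at chr6:7693210-7693459 on the minus strand and Chac1, a glutathione-degrading enzyme, at chr2:119350992-119351241 on the plus strand. Capitals mark the CARE letters, read on the other strand in Chac1.
Asns: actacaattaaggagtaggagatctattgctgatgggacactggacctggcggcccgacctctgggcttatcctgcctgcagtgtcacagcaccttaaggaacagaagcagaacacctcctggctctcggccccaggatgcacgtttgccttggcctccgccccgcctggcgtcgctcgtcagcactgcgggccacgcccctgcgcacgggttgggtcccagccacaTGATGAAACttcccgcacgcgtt
Chac1: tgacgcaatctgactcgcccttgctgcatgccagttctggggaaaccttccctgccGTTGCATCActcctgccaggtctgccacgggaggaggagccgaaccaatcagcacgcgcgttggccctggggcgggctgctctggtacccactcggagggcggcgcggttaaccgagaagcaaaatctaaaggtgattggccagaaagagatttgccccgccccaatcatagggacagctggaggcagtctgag

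Chac1 read 6.53, 6.86 and 6.87 in LB31 against 4.79, 5.06 and 4.89 in LAP tg/Blnk KO marrow (difference 1.84 ± 0.22, adjusted p = 2.05e-07). Its groups did not overlap. Chac1 was named after its values were seen.

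**Figure D2:**
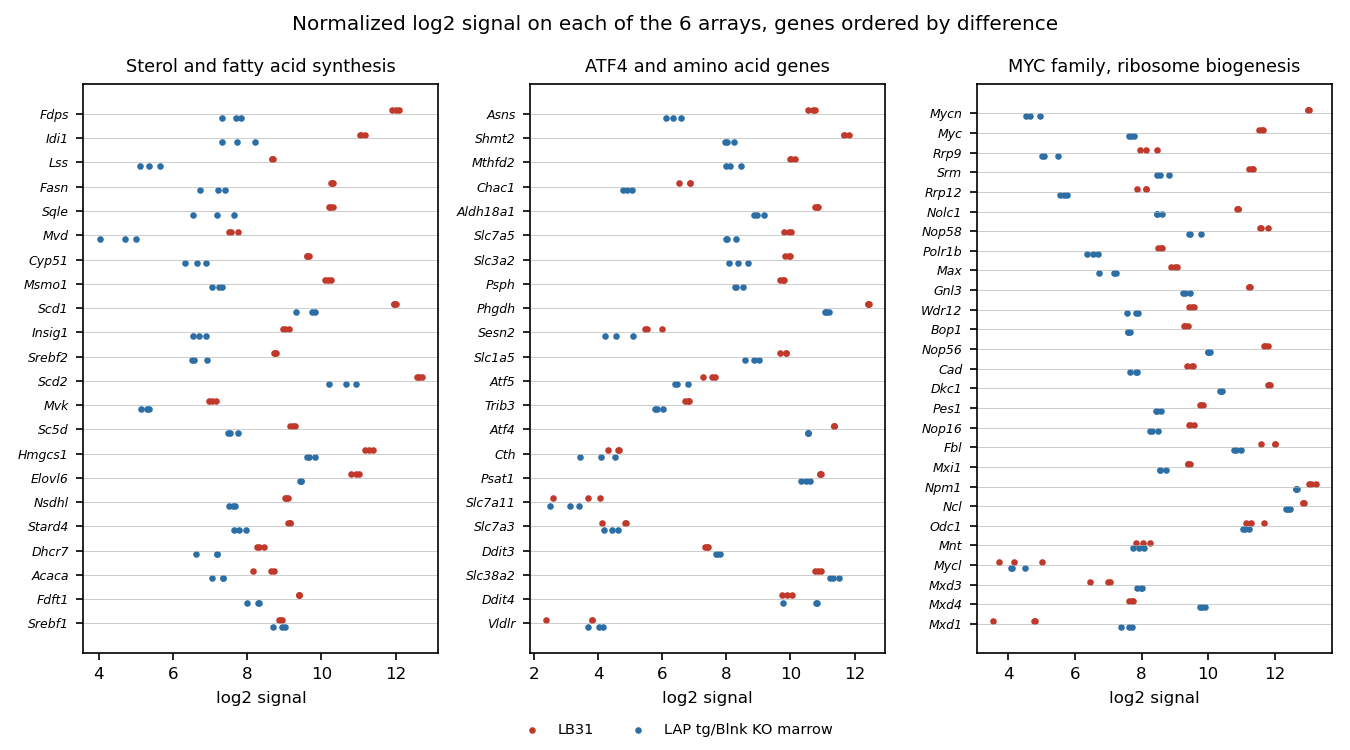
Normalized log2 signal (horizontal axis) of every tested member of 3 lists on each of the 3 LB31 arrays (red) and the 3 LAP tg/Blnk KO marrow arrays (blue), ordered by difference from top to bottom. In the sterol panel every gene but Srebf1 has its LB31 points to the right, and in the MYC panel Mxd1, Mxd3 and Mxd4 stand at the bottom with theirs to the left.

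Glycolysis and respiration rose less and less evenly. Of 19 glycolysis genes tested, 12 were called higher and 3 lower (median difference 0.51). Pfkl, the liver-type phosphofructokinase, read 7.84, 8.18 and 8.0 in LB31 against 6.31, 5.88 and 5.59 in LAP tg/Blnk KO marrow (difference 2.08 ± 0.15). Pfkp, the platelet-type subunit of the same enzyme, went the other way by its brightest probe set, with 5.99, 6.08 and 6.30 in LB31 against 8.27, 8.38 and 8.27 (difference -2.18 ± 0.11). The 2 other probe sets of Pfkp were not called. Pkm and Pgam1, enzymes of the later steps, rose by 1.73 ± 0.08 and 1.64 ± 0.08. Slc2a3, a glucose carrier, fell by 1.83 ± 0.25, with 2 of its 3 other probe sets not called.

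Fbp1, the gluconeogenic enzyme that runs against phosphofructokinase, read 6.45, 6.48 and 6.56 in LB31 against 9.83, 9.91 and 9.63 in LAP tg/Blnk KO marrow (difference -3.29 ± 0.21, adjusted p = 1.74e-11). It was above Blnk KO marrow, which averaged 5.36 (difference 1.14 ± 0.21, adjusted p = 7.83e-05). LB31 therefore stood between the marrow with the transgene and the marrow without it. Among 27 subunits of the respiratory chain, 19 were called higher and 3 lower, but the median was only 0.24, and without normalization between arrays the counts were 8 and 5. Sdhc, a succinate dehydrogenase subunit, had the largest rise of them (difference 1.71 ± 0.10).

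Signals of the IL-7 receptor pathway were split between receptor and targets. Il7r, the receptor chain, read 9.55, 9.82 and 9.64 in LB31 against 11.55, 11.67 and 11.84 in LAP tg/Blnk KO marrow (difference -2.02 ± 0.09, adjusted p = 1.39e-13). Jak1, the kinase bound to it, was lower by its brightest probe set (difference -1.20 ± 0.09), with another probe set called the other way, and Jak2 was lower too (difference -0.91 ± 0.11). Jak3, which binds the common γ chain, was higher (difference 1.43 ± 0.20).

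Socs1, Socs2, Socs3 and Cish, of the SOCS family, were called higher in LB31, while Bcl2 and Pim2, on the same list, did not pass the test. Socs2, a feedback inhibitor of cytokine receptors, read 12.50, 12.44 and 12.47 in LB31 against 8.52, 8.37 and 8.98 in LAP tg/Blnk KO marrow, a 14.4-fold rise (difference 3.85 ± 0.17, adjusted p = 3.53e-14). Cish, of the same family, read 9.76, 9.67 and 9.69 against 6.42, 6.46 and 6.5 (difference 3.24 ± 0.16). Socs1, under the filter level in the marrow group, rose too, with 6.81, 6.75 and 6.69 in LB31 against 3.06, 3.93 and 2.48 (difference 3.59 ± 0.26). In all, 9 of 17 tested genes of the pathway were called higher and 5 lower, with a median of 0.50. The LB31 medium held IL-7, as given above, and its part in these levels was not tested.

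Genes that govern entry into the cell cycle moved in both directions. Ccnd2, a D cyclin, read 11.20, 11.29 and 11.25 in LB31 against 7.61, 7.54 and 7.82 in LAP tg/Blnk KO marrow (difference 3.59 ± 0.11, adjusted p = 3.09e-16). Blnk KO marrow averaged 9.01, and all LB31 arrays lay above every marrow array. Cdk4, its kinase, read 11.38, 11.55 and 11.52 against 9.33, 9.13 and 9.40 (difference 2.20 ± 0.13). Ccnd1 was lower (difference -2.10 ± 0.21).

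Among CDK inhibitors, Cdkn2d, the p19 protein, read 8.66, 8.80 and 8.70 in LB31 against 11.00, 11.00 and 10.77 in the marrow group (difference -2.20 ± 0.07, adjusted p = 1.79e-16). Cdkn1b, the p27 protein and a FOXO target, fell by 1.84 ± 0.11 by its brightest probe set, with another called the other way. Cdkn2c did not pass the test, and Cdkn1c did so only without LB31 replicate 3 (difference -1.42, adjusted p = 0.00315) and without normalization between arrays (-1.28, adjusted p = 0.00917). Cdkn1a, the p21 protein, was higher, at 9.68, 9.77 and 9.76 in LB31 against 8.02, 7.94 and 7.45 (difference 1.93 ± 0.17, adjusted p = 3.15e-09). Cdkn2a, which encodes p16 and p19ARF and is often deleted in leukaemia, read 2.70, 2.66 and 3.84 in LB31 against 3.50, 6.0 and 3.85 in LAP tg/Blnk KO marrow. The groups overlapped, LB31 was under the filter level, and the call (difference -1.38 ± 0.57, adjusted p = 0.0439) was lost without marrow replicate 2 (difference -0.60, adjusted p = 0.359), without LB31 replicate 1 (-1.20, 0.125) and without LB31 replicate 2 (-1.19, 0.132). Cdkn2b was under the filter. The list of D cyclins, CDKs and their inhibitors had 6 of 20 called higher and 11 lower, and 6 of each when a gene's probe sets were averaged.

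DNA replication genes were modestly higher, with 19 of 34 called higher and 4 lower and a median of 0.39, and with 7 and 6 without normalization between arrays. Pola2, a DNA polymerase α subunit, read 9.63, 9.67 and 9.73 in LB31 against 8.07, 7.90 and 7.64 in LAP tg/Blnk KO marrow (difference 1.81 ± 0.10). Mcm2, part of the replicative helicase, rose by 1.48 ± 0.13 and E2f1 by 1.34 ± 0.18. Mitosis and spindle genes gave 4 of 29 higher and 14 lower (median -0.31), which turned to 8 and 4 after centring, so no direction is read from them. Plk1, a mitotic kinase, was higher (difference 0.72 ± 0.13) and Kif23, a motor of the dividing cell, lower (difference -1.04 ± 0.12).

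Of 14 BCL2-family genes tested, 9 did not pass. When a gene's probe sets were averaged, 6 were called higher and 4 lower. By the brightest probe sets, the 3 lower ones all promote death. Bmf, a BH3-only protein, read 5.41, 5.46 and 5.46 in LB31 against 9.49, 9.16 and 9.65 in LAP tg/Blnk KO marrow (difference -3.99 ± 0.20, adjusted p = 4.15e-13), with LB31 below all 12 marrow arrays. The 2 other probe sets of Bmf were not called. Bok fell by 2.30 ± 0.30 and Pmaip1, which encodes NOXA, by 1.87 ± 0.14. The 2 higher ones promote death as well: Bbc3, which encodes PUMA, at 1.14 ± 0.20 and Bid at 0.61 ± 0.08, and both missed the threshold without normalization between arrays. Bcl2 read 7.19, 7.43 and 7.41 in LB31 and 7.10, 7.04 and 7.11 in the marrow group (difference 0.26 ± 0.16, adjusted p = 0.181). Only 2 of its 4 other probe sets were likewise not called.

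The genes of the V(D)J recombinase were at the bottom of the scale in LB31. Rag1 read 2.16, 2.43 and 2.15 in LB31 against 11.70, 11.45 and 11.97 in LAP tg/Blnk KO marrow (difference -9.46 ± 0.21, adjusted p = 2.20e-18). Rag2 read 2.41, 2.20 and 2.23 against 9.0, 9.31 and 9.64 (difference -7.04 ± 0.19, adjusted p = 3.73e-17). All 3 LB31 arrays lay under the filter level and below all 12 marrow arrays for both. Together RAG1 and RAG2 form the complex that cuts antigen receptor genes.

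Other genes of the recombination step did not share that size of change. Dntt, the polymerase that adds bases at the joins, read 10.81, 10.66 and 10.82 in LB31 against 11.62, 11.60 and 11.49 in LAP tg/Blnk KO marrow (difference -0.81 ± 0.20, adjusted p = 0.00142), a call lost after centring, and lay above the wild-type mean of 9.50. Xrcc5, the Ku80 end-joining protein, was higher, at 7.97, 8.13 and 8.09 in LB31 against 5.66, 5.90 and 5.58 (difference 2.35 ± 0.12). Of 11 genes tested on this list, 1 was higher and 7 lower.

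B-lineage transcription factors were mostly lower, with 18 of 26 called lower and 5 higher (median -0.90), and 14 lower and 10 higher when a gene's probe sets were averaged (median -0.26). Ebf1, the factor that specifies the lineage, read 9.86, 9.68 and 9.62 in LB31 against 11.77, 11.58 and 11.96 in LAP tg/Blnk KO marrow (difference -2.05 ± 0.16, adjusted p = 5.30e-10). Foxo1, which acts with it on Rag and Il7r, read 8.25, 8.31 and 8.32 against 10.60, 10.19 and 10.20 (difference -2.03 ± 0.11). Bcl6, which is induced at the small pre-B stage and represses cell cycle checkpoints, read 4.75, 4.62 and 3.0 against 7.58, 7.88 and 8.23 (difference -3.77 ± 0.38). Each of these 3 lay below all 12 marrow arrays, but the other probe set of Bcl6 was not called.

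Irf4, needed to leave the large pre-B stage, fell by 1.73 ± 0.08, with another probe set called the other way. Pax5, the keeper of B-cell identity, read 6.12, 6.40 and 5.70 in LB31 against 6.97, 5.91 and 6.48 in the marrow group, and the groups overlapped (difference -0.38 ± 0.24, adjusted p = 0.186). It was called lower without marrow replicate 2 (difference -0.65, adjusted p = 0.0253), and higher when its probe sets were averaged (0.71, adjusted p = 0.00142), so its direction is not settled. Ikzf1, which encodes Ikaros, was called lower by its brightest probe set (difference -0.62 ± 0.08) and higher by the mean of all (1.04).

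Spi1, Runx1 and Pou2f2 were the 3 largest rises among these factors. Spi1, which encodes PU.1, read 7.23, 7.51 and 7.39 in LB31 against 6.46, 6.49 and 6.57 in LAP tg/Blnk KO marrow (difference 0.87 ± 0.14), and Runx1, a founding factor of blood stem cells, 9.77, 9.73 and 9.75 against 8.90, 8.67 and 8.97 (difference 0.90 ± 0.15). Spi1 was not above all 12 marrow arrays, and its call was lost without normalization between arrays (0.23, adjusted p = 0.292). Runx1 lay above all 12, and of its 5 other probe sets 2 were called higher and 3 were not called. Pou2f2, an octamer-binding factor, rose by 1.54 ± 0.23 over the LAP tg/Blnk KO group but did not pass the test against Blnk KO marrow (difference 0.36 ± 0.23, adjusted p = 0.202).

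Stage antigens of the surface moved in both directions. Enpep, the BP-1 antigen of late pro-B and large pre-B cells, read 12.95, 12.82 and 12.85 in LB31 against 10.60, 11.34 and 11.56 in LAP tg/Blnk KO marrow (difference 1.71 ± 0.16, adjusted p = 4.44e-09). It was above all 12 marrow arrays. Il2ra, the CD25 marker of small pre-B cells, was 5.78, 5.72 and 5.57 in LB31 against 4.97, 4.39 and 4.69 (difference 1.00 ± 0.23), and within the range of the other marrow groups. Kit and Flt3, the receptors of earlier progenitors, were under the filter level in LB31, with differences of -2.26 ± 0.38 and -3.10 ± 0.38. The other probe set of Kit was not called. Of 14 tested stage antigens, 4 were higher and 10 lower.

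Genes of immature and mature B cells were lower in 14 of 20 and higher in 1 (median -1.47). Ms4a1, which encodes CD20, read 4.15, 3.87 and 3.31 in LB31 against 9.84, 9.60 and 9.72 in LAP tg/Blnk KO marrow and 12.50 in Blnk KO marrow (LB31 minus LAP tg/Blnk KO marrow -5.94 ± 0.18, adjusted p = 1.61e-16). LB31 lay below the marrow group, which was itself below the marrow without the transgene. Ly86, the partner of the receptor RP105, fell by 4.37 ± 0.12. Fcmr, the IgM Fc receptor, fell by 4.42 ± 0.34, to under the filter level. Cd37 was the 1 rise, and a second probe set of it was called lower.

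Most MHC class II genes were lower in LB31. H2-Aa, the α chain of I-A, read 4.56, 5.29 and 4.95 in LB31 against 9.39, 9.37 and 9.19 in LAP tg/Blnk KO marrow (difference -4.39 ± 0.14, adjusted p = 2.43e-16), and averaged 11.85 in Blnk KO marrow. H2-Eb1 read 4.94, 5.30 and 4.91 against 7.77, 7.66 and 7.02 (difference -2.43 ± 0.32), and Ctss, the protease that trims the invariant chain, fell by 2.26 ± 0.09. In all 8 of 11 were lower and 1, H2-Eb2, higher, and H2-DMb2 and Ciita did not pass the test. Class I presentation genes were split, with 4 of 11 higher and 3 lower, with 2 higher and 5 lower without normalization between arrays and with 8 higher and 0 lower after centring. Tap2, a peptide transporter subunit, was the largest rise there, at 10.10, 10.32 and 10.20 in LB31 against 8.70, 8.61 and 8.30 (difference 1.67 ± 0.09), above all 12 marrow arrays.

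**Figure D3:**
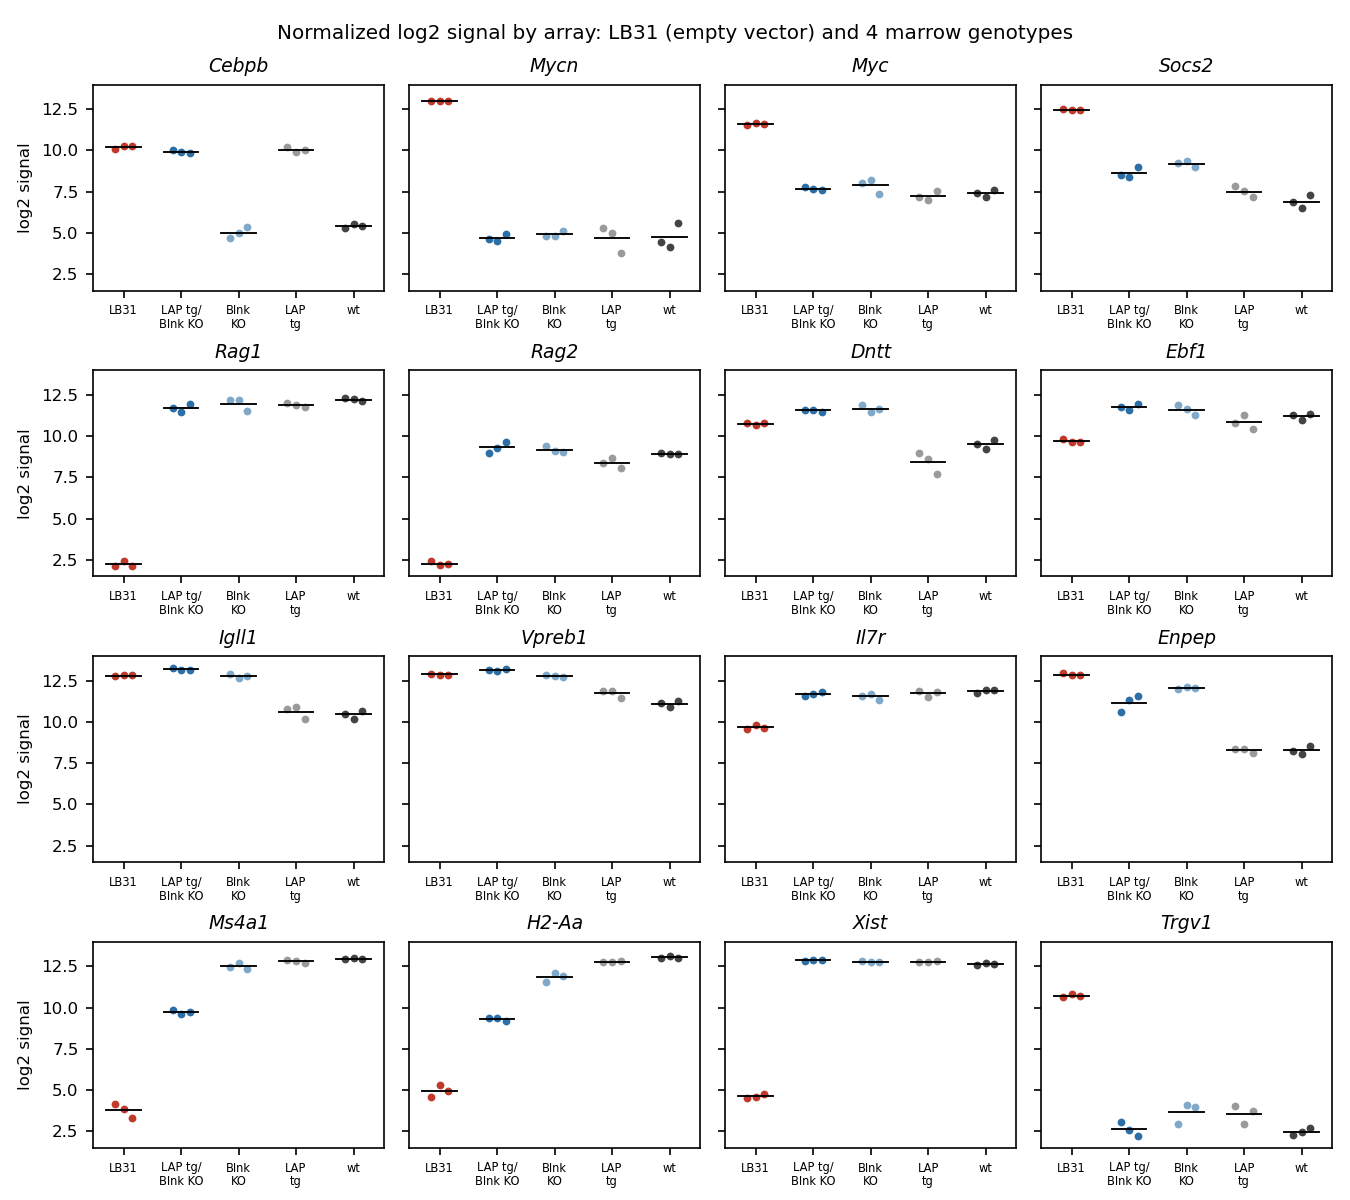
Normalized log2 signal of 16 genes on each array (vertical axis) in LB31 with the empty vector and in marrow of 4 genotypes, 3 arrays per group, with bars for group means. Rag1 and Rag2 are near 2 in LB31 and high in all marrow, Mycn is near 13 in LB31 and near 5 in all marrow, and Cebpb is near 10 in LB31 and in the groups with the LAP transgene.

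Downstream of the receptor, 17 of 25 signalling genes were lower and 3 higher (median -0.78). Rasgrp3, a Ras activator, read 3.93, 2.47 and 2.94 in LB31 against 6.45, 6.02 and 5.97 in LAP tg/Blnk KO marrow (difference -3.03 ± 0.32), a fall to under the filter level. Pik3ap1, the adaptor BCAP that recruits PI3 kinase, read 7.82, 7.58 and 7.95 against 10.25, 9.94 and 9.74 (difference -2.19 ± 0.18). Rasgrp3 and Pik3ap1 each have 1 other probe set, which was not called. The rises were Blk, a Src-family kinase, and Rasgrp1, another Ras activator, together with Pik3cd, which has 2 other probe sets called lower.

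Blk read 8.80, 9.02 and 8.90 in LB31 against 7.43, 7.15 and 6.41 in LAP tg/Blnk KO marrow (difference 1.91 ± 0.17, adjusted p = 3.20e-09), while Blnk KO marrow averaged 9.02 and the difference from it was -0.11 ± 0.17 (adjusted p = 0.601). Rasgrp1 rose by 1.21 ± 0.13 over the LAP tg/Blnk KO group but was lower than Blnk KO marrow (difference -0.81 ± 0.13). Both comparisons share the LB31 arrays. The Pik3cd call (difference 0.39 ± 0.15, adjusted p = 0.0317) was lost without marrow replicate 2 (0.38, adjusted p = 0.0748), marrow replicate 3 (0.37, 0.0805), LB31 replicate 1 (0.36, 0.0843) or LB31 replicate 2 (0.37, 0.0802).

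PI3 kinase pathway genes included 6 of 22 higher, near the 28.4% of all genes, and 13 lower. Akt1 read 9.58, 9.70 and 9.62 in LB31 against 8.38, 8.12 and 8.03 in LAP tg/Blnk KO marrow (difference 1.46 ± 0.11). Of its 3 other probe sets, 1 was called higher and 2 were not called. Sgk1, a related kinase, read 7.63, 7.71 and 7.49 against 10.44, 10.78 and 10.88 (difference -3.09 ± 0.12), and Pik3ip1, an inhibitor of PI3 kinase, fell by 2.96 ± 0.19. Inpp4b, a lipid phosphatase, rose by 2.16 ± 0.30.

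Genes recurrently altered in human B-lineage acute lymphoblastic leukaemia were 7 higher and 29 lower among 44 tested (median -0.61). When a gene's probe sets were averaged, 12 were higher and 21 lower (median -0.30). Ebf1, Ikzf1 and Btg1, described here, are among those called lower, with another probe set of Ikzf1 called the other way. Jak3, Runx1 and Xbp1 are among those called higher.

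Immediate early genes were 7 higher and 12 lower among 24, the share of higher ones being near the 28.4% of all genes. Dusp5, a nuclear phosphatase of ERK, read 9.78, 10.02 and 9.77 in LB31 against 5.43, 6.05 and 6.15 in LAP tg/Blnk KO marrow (difference 3.98 ± 0.21, adjusted p = 6.00e-13). Junb rose by 2.70 ± 0.19. Egr1 and Fos, the factors switched on within minutes of stimulation, had differences of -2.45 ± 0.21 and -3.0 ± 0.59, and Btg2, which slows division, of -3.31 ± 0.18. Btg1, an antiproliferative relative of Btg2 that is deleted in part of human pre-B leukaemias, read 10.01, 9.78 and 9.87 against 12.92, 12.68 and 12.88 (difference -2.94 ± 0.08).

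Lta, which encodes lymphotoxin α, was among the 5 largest rises of genes under the filter level in the marrow group, with 9.68, 9.67 and 9.68 in LB31 against 4.65, 3.07 and 2.81 in LAP tg/Blnk KO marrow (difference 6.17 ± 0.34, adjusted p = 1.51e-12). Ltb, its partner in the membrane-bound complex, went the other way, with 3.99, 2.30 and 3.96 against 9.02, 7.85 and 8.30 (difference -4.97 ± 0.38), a fall to under the filter level. In NF-κB genes, 2 of 13 were higher and 8 lower. Nfkbiz, an inducible nuclear regulator, fell by 3.49 ± 0.16.

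Probe sets of T-cell receptor γ segments were bright in LB31. Trgv1 read 10.63, 10.83 and 10.73 in LB31 against 3.10, 2.58 and 2.26 in LAP tg/Blnk KO marrow (difference 8.08 ± 0.28, adjusted p = 1.03e-15). Trgv4 read 10.62, 10.38 and 10.41 against 3.38, 4.35 and 3.92 (difference 6.59 ± 0.28). Both were under the filter level in the marrow group, and LB31 lay above all 12 marrow arrays for both, but signals do not show whether the segments are rearranged. Of 8 T-cell receptor segments tested, 2 were higher and 2 lower, and the T and NK cell list had 0 of 14 higher and 7 lower.

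Immunoglobulin segments were 6 higher and 4 lower of 16 tested. Igkv8-30 read 11.55, 9.92 and 11.48 in LB31 against 8.09, 7.18 and 7.72 in the marrow group (difference 3.32 ± 0.32), and Igkv4-68 6.49, 6.63 and 6.56 against 2.91, 2.14 and 2.37 (difference 4.08 ± 0.19). Igkv4-68 was under the filter level in the marrow group. Ighv14-2 was lower, at 5.71, 5.66 and 5.62 against 8.82, 8.80 and 8.96 (difference -3.20 ± 0.10). Segments of a family are near copies that a probe set can share, so each is uncertain. The IgM constant region gene Ighm differed by -0.36 ± 0.08, or by 0.41 after centring.

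Among the remaining largest rises with both groups above the filter level, the list was led by genes of many functions. Aldh1a7, an aldehyde dehydrogenase, read 12.13, 12.19 and 12.16 in LB31 against 4.86, 4.54 and 4.55 in LAP tg/Blnk KO marrow, a 182-fold rise (difference 7.51 ± 0.28). Myl10, a myosin light chain, rose by 7.38 ± 0.36 over LAP tg/Blnk KO marrow, and averaged 7.08 in Blnk KO marrow. The forkhead factor Foxc1 rose by 5.09 ± 0.29 and the melanocortin receptor Mc1r by 4.82 ± 0.44. Cenpv, Cst7 and Tubb3 rose by 4.42 ± 0.15, 4.30 ± 0.23 and 4.05 ± 0.28. Tgfb3, a TGF-β ligand (difference 6.64 ± 0.44), and Slco1a5, an organic anion carrier (difference 6.05 ± 0.31), were under the filter level in the marrow group.

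Because both groups have a high Cebpb signal, genes that were higher in LAP tg than in wild-type marrow, on arrays outside this comparison, were followed. There were 106 of them, called and at least 2-fold. Myeloid markers moved with LAP tg marrow too: the neutrophil list averaged 9.25, 8.69 and 11.02 on its 3 arrays against 8.63, 9.07 and 8.59 in wild-type marrow, and the monocyte list 8.36, 8.12 and 9.35 against 7.71, 7.95 and 7.81. Their part in the list of 106 was not tested, and replicate 3 of LAP tg marrow stood apart. Without that array 66 genes were called, 55 of them among the 106, and of the 66, 17 were higher in LB31, 39 lower and 10 not called (median -0.90). Of the full list of 106, 27 were higher in LB31 than in LAP tg/Blnk KO marrow, 55 lower and 24 not called. Their median was -0.66, beside 28.4% higher and 30.4% lower among all genes. Among the 55 lower genes, 28 were under the filter level in LB31. Cebpb itself, whose high signal in both groups was known beforehand, is one of the 27 higher ones, by the fragile call given above.

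Htra3, a secreted serine protease, was one of the 27 and one of the largest rises of all. It read 10.22, 10.32 and 10.36 in LB31 against 6.10, 5.27 and 5.66 in LAP tg/Blnk KO marrow (difference 4.62 ± 0.28, adjusted p = 8.08e-12), and averaged 3.78 in Blnk KO marrow. B3galt1, a galactosyltransferase and the strongest rise of the 106, was not called, at 6.63, 6.54 and 6.32 in LB31 and 6.33, 6.40 and 6.27 in LAP tg/Blnk KO marrow (difference 0.16 ± 0.24, adjusted p = 0.591), and averaged 2.54 in Blnk KO marrow. F13a1, a coagulation factor made by macrophages and platelets, was lower, at 6.35, 6.29 and 6.38 in LB31 against 11.69, 11.60 and 11.28 (difference -5.18 ± 0.20). Ccl9, a macrophage chemokine, averaged 8.76 in LB31, 9.42 in LAP tg/Blnk KO marrow and 5.87 in Blnk KO marrow (LB31 minus LAP tg/Blnk KO marrow -0.67 ± 0.22, adjusted p = 0.0117), and the call was lost without marrow replicate 1 (-0.48, adjusted p = 0.0846). F13a1, Ccl9 and B3galt1 were named after their values were seen.

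Beside Rag1 and Xist, genes of other blood lineages were prominent among the largest falls. S100a8 read 3.32, 2.29 and 4.24 in LB31 against 13.79, 13.61 and 13.63 in LAP tg/Blnk KO marrow (difference -10.39 ± 0.35, adjusted p = 9.85e-16), and S100a9, its partner in the neutrophil protein calprotectin, fell by 10.24 ± 0.35. Ppbp, a platelet chemokine, read 2.50, 2.15 and 2.29 against 12.47, 12.12 and 12.01 (difference -9.88 ± 0.24). LB31 was under the filter level for all 3. Camp and Ngp, neutrophil granule proteins, Pf4 and Tubb1 of platelets, and Slc40a1, the iron exporter, were also among the 12 largest falls with both groups above that level.

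The marker lists of these lineages showed the same on every array. The mean signal of 15 neutrophil markers ran from 3.51 to 3.76 in LB31 and from 9.55 to 10.12 in LAP tg/Blnk KO marrow, with 11 of 15 under the filter level in LB31 and 0 in the marrow group. For 20 monocyte and macrophage markers the ranges were 4.18 to 4.38 and 8.40 to 8.54, and for 8 megakaryocyte markers 3.74 to 4.15 and 9.05 to 9.65. For 14 markers of stroma and endothelium they were 3.59 to 3.74 and 6.66 to 7.09, and for the 8 erythroid markers 5.34 to 5.54 and 8.48 to 8.59. None of these ranges overlapped.

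Called lower were 14 of 15 neutrophil, 20 of 20 monocyte, 8 of 8 megakaryocyte, 13 of 14 stromal and 5 of 7 tested erythroid genes. The single rise was Tfrc, the transferrin receptor, which dividing cells also use (difference 0.96 ± 0.09). In bulk samples, fewer cells of a type and less RNA per cell cannot be told apart. The part of these cell types in the falls of other genes, such as F13a1, Fbp1 and Cebpd, was not tested. The same holds for the 24 genes of the myelomonocytic programme that C/EBP factors can induce, of which 20 were lower and 1 higher (median -4.60), and some of which are also on the monocyte list.

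**Figure D4:**
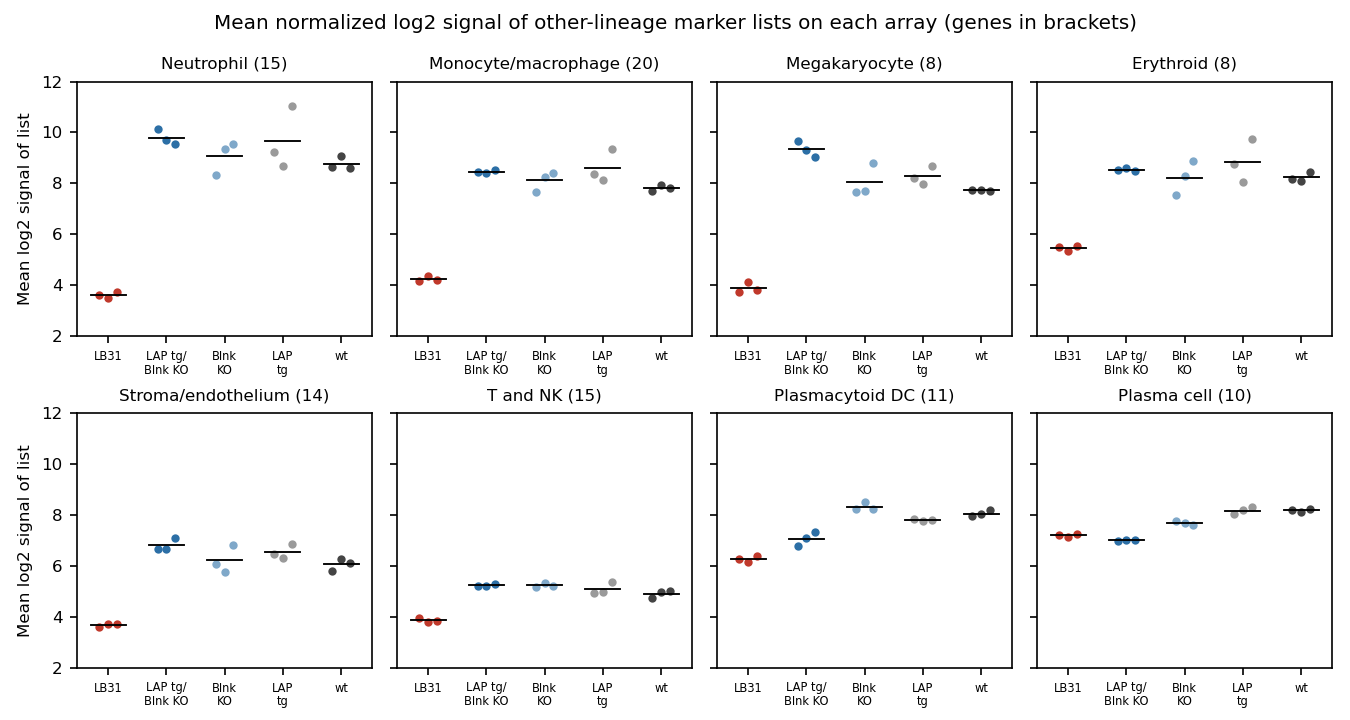
Mean normalized log2 signal of 8 marker lists of other cell types (vertical axis) on each array of LB31 and of the 4 marrow genotypes, 3 arrays per group, with bars for group means and the number of genes in brackets. Neutrophil markers lie between 3.51 and 3.76 in LB31 and between 9.55 and 10.12 in LAP tg/Blnk KO marrow.

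Other large falls included Casd1, an enzyme that acetylates sialic acid, at 4.61, 3.54 and 4.63 in LB31 against 10.09, 9.93 and 10.02 in LAP tg/Blnk KO marrow (difference -5.76 ± 0.23). Pafah1b3, part of a platelet-activating factor hydrolase, fell by 5.73 ± 0.29, Fam117a by 5.46 ± 0.20 and Gimap4, a lymphocyte GTPase, by 5.37 ± 0.23. Bfsp2, a filament protein known from the lens, fell by 5.58 ± 0.36. The part of cells of other lineages in these falls was not tested.

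Adhesion and homing genes were lower in 14 of 22 and higher in 3 (median -1.01). Itgal, the LFA-1 integrin chain, read 5.55, 5.88 and 6.23 in LB31 against 9.53, 9.31 and 8.95 in LAP tg/Blnk KO marrow (difference -3.38 ± 0.18). Itga6, a laminin receptor chain, rose by 1.06 ± 0.14. Vcam1, a marker of stroma and macrophages, fell by 9.10 ± 0.31 to under the filter level and moves with the marker lists above. Interferon response genes were lower in 16 of 25 and higher in 3 (median -0.96), led by Oas1a, Rtp4 and Rsad2 with differences of -4.65 ± 0.27, -4.63 ± 0.33 and -4.36 ± 0.38. The other probe set of Rtp4 was not called.

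Xist, the RNA that coats the inactive X chromosome of female cells, read 4.53, 4.60 and 4.74 in LB31 against 12.84, 12.87 and 12.90 in LAP tg/Blnk KO marrow (difference -8.24 ± 0.24, adjusted p = 8.61e-17). All 12 marrow arrays were high. The other 2 Xist probe sets were also low on all LB31 arrays, and no probe set of the Y-linked genes Eif2s3y, Kdm5d and Uty passed 4.39 on any of the 21 arrays. The labels used here give no sex.

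**Figure D5:**
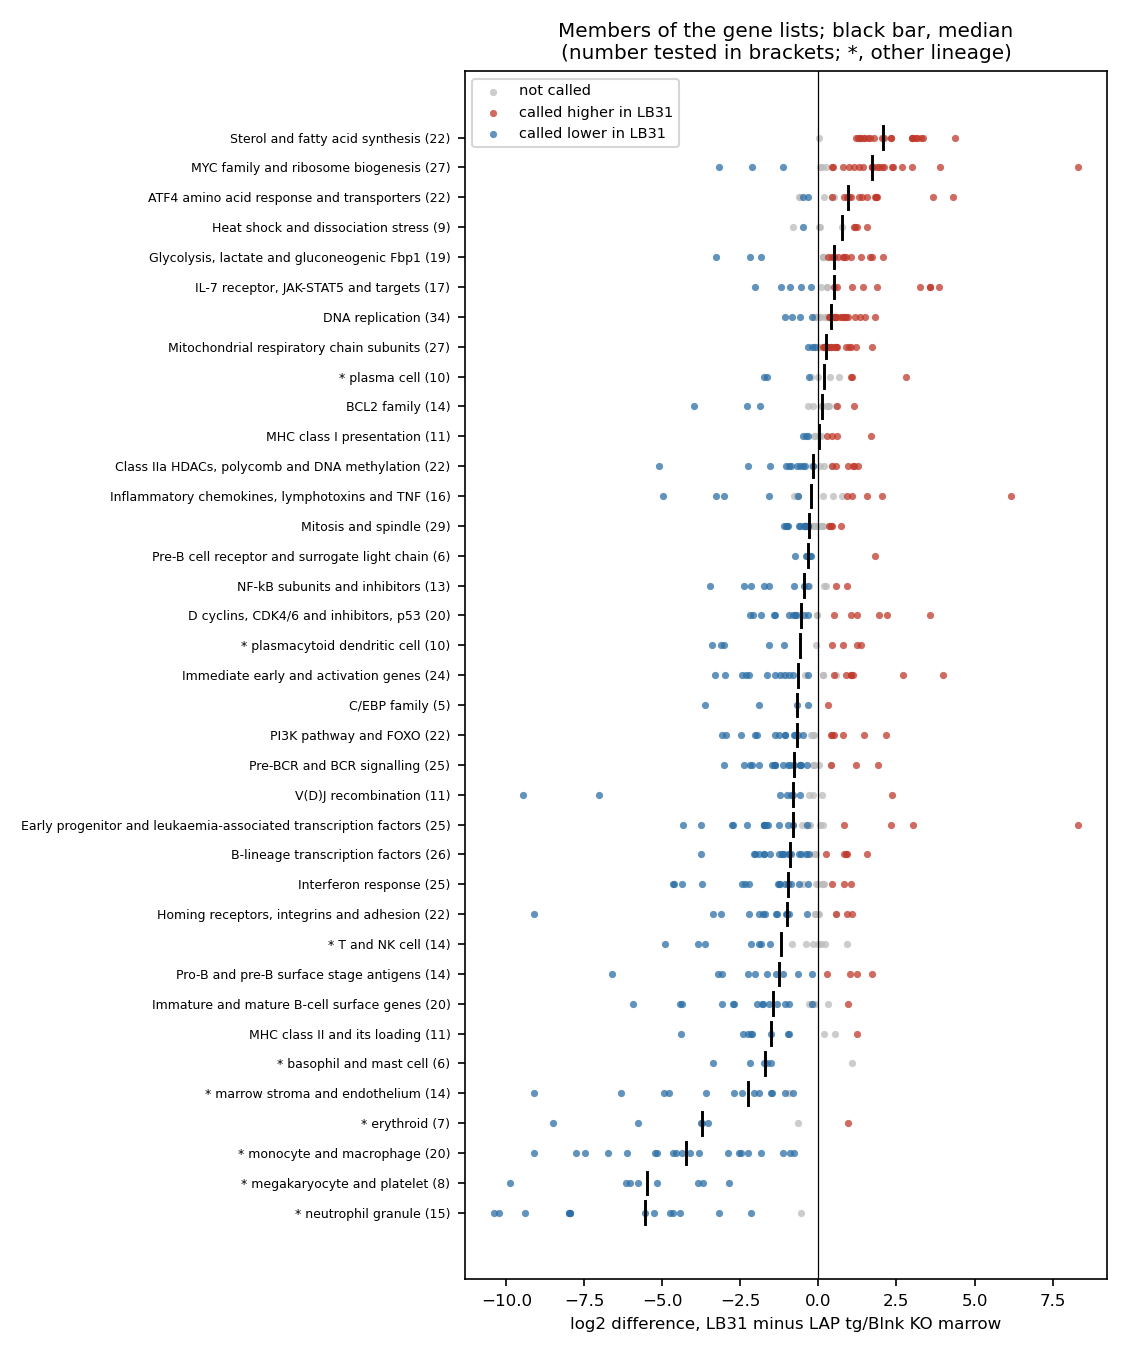
Differences (log2, horizontal axis) of every tested member of the gene lists, 1 point per gene coloured by call, with a black bar at each list's median and lists ordered by it. The lists of sex-linked genes, of the myelomonocytic programme and of genes altered in human leukaemia are not shown. Sterol synthesis stands at the top with a median of 2.07 and neutrophil genes at the bottom with -5.55, and the signs of the lists for the pre-B cell receptor, mitosis, CDK control, chromatin, class I presentation, chemokines, plasma cells, plasmacytoid dendritic cells and BCL2 (median or balance of calls) depend on the processing.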

How the data were processed

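Affymetrix whole-genome mouse arrays were hybridised with RNA of 7 groups of 3, 21 arrays in all. The authors deposited MAS5 intensity values per probe set, per the submitters' processing notes, and the scaling was not stated there. Those values were turned here into log2(signal + 4) and quantile-normalized over the 21 arrays. Genes were kept where they passed an array's 40th percentile on 3 or more arrays. Of 45101 probe sets, 34945 had 1 gene symbol, 932 had several, 9160 had none and 64 were controls, and a gene took its probe set of highest mean. Symbols were set against RefSeq (GRCm38.p6), where 34741 matched and 0 changed.

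Differences were tested with limma 3.58.1 in R 4.3.3 (lmFit, eBayes with an intensity trend), with 7 group means, 14 residual degrees of freedom and Benjamini-Hochberg adjustment over 14655 genes. The test was also run on simulated data with independent noise and known changes. That simulation skipped the normalization step, so it cannot show how the scaling between arrays affects the calls. The number of arrays limits the precision. Same-numbered replicates showed no shared deviation (correlations 0.00, 0.00 and -0.01).

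The members and gene lists were chosen with earlier results of these data known. The genes named are the 12 largest rises and falls with both groups above the filter level, the 5 largest each way under it, the 3 largest called members each way in each list, and a fixed set (Cebpb, Blnk and stage genes). Others were named after their values were seen: Cish, Scd1, Srebf1, Srebf2, Hmgcs1, Msmo1, Chac1, Slc7a11, Vldlr, Mxi1, Max, Odc1, Mnt, Mycl, B3galt1, F13a1, Ccl9, Socs3, Pim2, Cdkn1c, Cdkn2c, H2-DMb2, Ciita, the Y-linked genes and the immunoglobulin segments. Of 207 other probe sets of named called genes, 134 were called in the same direction, 21 in the opposite direction and 52 not.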

Additional observations from a re-analysis of the deposited data

How the results depend on the processing

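The number of genes called ran from 7808 (filter at the 60th percentile) to 8721 (pseudocount of 16) over the settings tried, against 8614, and without one replicate at a time from 8124 to 8319. The share of calls that were higher in LB31 was 48.3%, 20.0% without normalization between arrays, 57.9% with arrays centred on their medians and 41.8% with a common trimmed mean. A replicate block, whose numbers do not pair these samples, gave 8574 calls and ended the call of Cdkn2a. Signs turned for few named genes. Centring gave 0.41 for Ighm, 0.46 for Igll1 and 0.60 for Vpreb1, and the trimmed mean gave 0.17, 0.22 and 0.36 in the same order. The mean of a gene's probe sets gave -0.36 for Cd37, -1.13 for Cebpb, 0.17 for Ddit3 and 1.04 for Ikzf1, and Cebpb was -0.00 without normalization between arrays. Without that normalization Bbc3, Bid, Cbx2, H2-Eb2, Il2ra, Plk1, Rasgrp1, Ring1 and Spi1 were no longer called higher, and Srebf1 was called lower (-0.44). Odc1 was called higher after centring (0.71). The cause of these changes was not tested. In lists, the balance of calls or the median turned for the pre-B cell receptor, mitosis, CDK control, BCL2, class I presentation, chemokine, chromatin, plasmacytoid dendritic and plasma cell genes. Genes raised in LAP tg marrow numbered 66 without its replicate 3, against 106, a setting chosen after seeing the data. Differences from levels near the bottom of the scale are limited by the signal over background.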

Other observations

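Transcription factors of early progenitors were 4 higher and 14 lower among 25 tested (median -0.82). Gfi1b, a repressor of the erythroid and platelet lineages, read 8.67, 8.84 and 8.74 in LB31 against 5.64, 6.28 and 5.20 in LAP tg/Blnk KO marrow (difference 3.04 ± 0.32), and its relative Gfi1 read 3.88, 3.32 and 4.87 against 8.39, 8.28 and 8.40 (difference -4.34 ± 0.27). Their groups did not overlap, so the relatives differed in opposite directions, though the LB31 mean of Gfi1 was under the filter level. Nfe2 and Gata1, factors of the same lineages as Gfi1b, were lower (differences -3.75 ± 0.45 and -2.77 ± 0.56), while the erythroid and megakaryocyte markers were low in LB31. Hoxa5 was higher by its brightest probe set (difference 2.31 ± 0.33), with another called the other way.

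Genes of class IIa HDACs, polycomb complexes and DNA methylation were 6 higher and 11 lower among 22 tested (median -0.19), and 7 of each after centring. Tet1, which oxidises methylated cytosine, read 4.06, 3.10 and 2.08 in LB31 against 8.29, 8.06 and 8.22 in LAP tg/Blnk KO marrow (difference -5.11 ± 0.34), a fall to under the filter level. Cbx2 and Ring1, parts of polycomb complex 1, were higher (differences 1.13 ± 0.16 and 1.12 ± 0.16).

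Of 10 plasma cell genes, 3 were higher and 3 lower, and 2 and 4 without normalization between arrays. Xbp1, the factor of the secretory stress response, read 12.21 on all 3 arrays of LB31 against 11.07, 11.13 and 11.24 in LAP tg/Blnk KO marrow (difference 1.07 ± 0.06), and Prdm1, the factor that fixes plasma cell fate, was under the filter level in LB31 (difference -1.64 ± 0.31). Among 9 heat shock genes 4 were higher and 1 lower. Hspe1 and Hspd1, the chaperonin pair of the mitochondrion, rose by 1.55 ± 0.09 and 1.18 ± 0.08, and neither pair of groups overlapped. Of 10 plasmacytoid dendritic cell genes 4 were higher and 5 lower. Klk1, counted as higher, has 3 other probe sets, all called lower, and Ly6d, also counted as higher, is on the list of B-lineage stage antigens too. Siglech and Ccr9 were among the 5 lower ones. Of 6 basophil and mast cell genes 0 were higher and 5 lower. Inflammatory chemokines, lymphotoxins and TNF-family genes were 5 higher and 5 lower among 16, with a median of -0.24, or 0.15 over the 13 that passed the filter on the 6 arrays alone.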
